A study of Mus musculus with 6 samples.

Results

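The nuclear genes of the mouse mitochondrial respiratory chain and ATP synthase were described in testis RNA, with their testis isoforms set beside the general ones. They were chosen by name: protein-coding entries whose symbol starts with Ndufa, Ndufb, Ndufc, Ndufs or Ndufv, with Uqcr, with Cox4 to Cox8 or with Atp5, together with Sdha, Sdhb, Sdhc, Sdhd, Cyct and Cycs. This gave 96 of the 55711 entries in the deposited table, of which 22046 are protein-coding. The 96 entries carry 95 symbols, because Atp5o stands under 2 Ensembl identifiers. The groups were 3 testis libraries labelled as Tmc7 knockout and 3 labelled as heterozygous controls, all from C57BL6 mice, so the controls also carry the targeted allele on 1 chromosome copy. The labels used here give neither the age of the animals nor the design of the allele, and do not say that each library came from a separate animal, and the p-values given here therefore rest on the spread among 6 libraries that may be technical repeats. Tmc7, the targeted gene, had 43.8, 41.9 and 35.1 FPKM in the knockout-labelled libraries and 39.1, 37.7 and 37.2 FPKM in the controls. The groups overlapped (log2 difference 0.08 ± 0.10 SE, limma adjusted p = 0.885), so the level of its transcript does not check the labels, and a deletion that leaves the transcript in place would not show here.

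The respiratory chain is a set of protein complexes in the inner mitochondrial membrane that pass electrons to oxygen and pump protons, and ATP synthase uses the returning protons to make ATP. Most of the subunits are encoded in the nucleus and a few in mitochondrial DNA. Several subunits exist as a general and a tissue form from separate genes. Testis has its own cytochrome c, encoded by Cyct, and its own cytochrome c oxidase subunits, encoded by Cox6b2, Cox7b2 and Cox8c, which are known from male germ cells.

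Libraries held 17397662 to 19343479 reads in the knockout group and 17059486 to 18629233 reads in the control group, as recovered from the FPKM values. Models of small RNAs took 0.0949%, 0.335% and 0.281% of the reads in knockout libraries 1, 2 and 3, against 0.0997% to 0.105% in the controls. Germ cell and Sertoli cell markers were present in every library, while 5 epididymis markers summed to at most 0.297 FPKM in knockout libraries and 0.286 FPKM in controls, with Lcn5 at 0 throughout. All 14 markers of elongating and elongated spermatids, such as Tnp1 and Prm1, were lower in the knockout group, with a median log2 difference of -0.42, and none was called. Round spermatid markers had a median log2 difference of -0.24 (9 of 9 lower), spermatocyte markers -0.21 (7 of 8 lower) and Sertoli cell markers 0.25 (8 of 9 higher), with none called. With each gene centred on its mean, elongated spermatid markers had log2 medians of 0.33, -0.33 and -0.59 in the knockout libraries. Their medians in the controls were 0.49, 0.29 and -0.20. Sertoli cell markers had -0.14, 0.21 and 0.25 in knockout libraries and -0.16, -0.16 and -0.01 in controls. In both lists knockout library 1 lay within the range of the controls. In whole testis RNA, fewer cells of a type and less RNA per cell cannot be told apart.

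The testis isoforms were the more abundant form in all 6 libraries for each of their pairs. FPKM divides reads by the deposited gene length, so levels are compared between genes on that scale. This length often equalled that of all exons in the reference annotation but not always, as for Ndufs8 (963 against 1291 bases). Ranks that differ on the length of the longest coding transcript are named. Cox8c, a small subunit of cytochrome c oxidase, had the highest level of all 96 entries, with 549, 436 and 582 FPKM in knockout libraries and 594, 452 and 503 FPKM in controls. Cox6b2, which encodes the subunit that faces the intermembrane space, had 146, 137 and 200 FPKM in knockout libraries and 162, 142 and 143 FPKM in controls. The groups overlapped for both genes, with log2 differences of 0.02 ± 0.17 for Cox8c (SE, adjusted p = 0.987, limma) and 0.10 ± 0.16 for Cox6b2 (adjusted p = 0.906). Cox7b2, another small membrane subunit, had 176, 106 and 117 FPKM in knockout libraries and 167, 138 and 156 FPKM in controls. Cyct, the testis cytochrome c that carries electrons between complexes III and IV, had 67.2, 43.1 and 56.2 FPKM in knockout libraries and 67.1, 55.3 and 60.9 FPKM in controls. For both genes knockout library 1 was the highest of all 6 and knockout library 2 the lowest, so the groups overlapped. The log2 difference was -0.24 ± 0.20 for Cox7b2 (95% interval -0.70 to 0.22, adjusted p = 0.868) and -0.15 ± 0.17 for Cyct (-0.55 to 0.24, adjusted p = 0.872). The summed elongated spermatid markers had 18254, 10765 and 9441 FPKM in the same knockout libraries and 21394, 17519 and 12542 FPKM in the controls, and their part in these values was not tested.

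The general partners were far lower. Cycs, the somatic cytochrome c, had 7.81, 5.40 and 6.77 FPKM in knockout libraries and 7.18, 6.88 and 7.68 FPKM in controls. Cox7b was lowest, at 2.53, 3.75 and 2.70 FPKM in knockout libraries and 3.61, 1.78 and 2.74 FPKM in controls. Cox8a lay at 25.3 to 33.6 FPKM in knockout libraries and 26.0 to 32.3 FPKM in controls, and Cox6b1 at 15.2 to 17.9 and 14.5 to 18.5 FPKM. In all 4 the groups overlapped, and the log2 differences were -0.12 (Cycs), 0.12 (Cox7b), -0.02 (Cox8a) and -0.01 (Cox6b1). Ordered by mean level, the 8 genes ran Cox8c, Cox6b2, Cox7b2, Cyct, Cox8a, Cox6b1, Cycs and Cox7b. The ranges over the 6 libraries overlapped only between the neighbours Cox6b2 and Cox7b2, and on the length of the longest coding transcript the order was the same and these ranges separated as well. Cycs shares 29.4% of its 31-base words with other genes, chiefly Gm10053, an entry with 2.49 to 3.30 FPKM in knockout libraries and 2.84 to 3.29 FPKM in controls, so its level is uncertain.

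**Figure D1:**
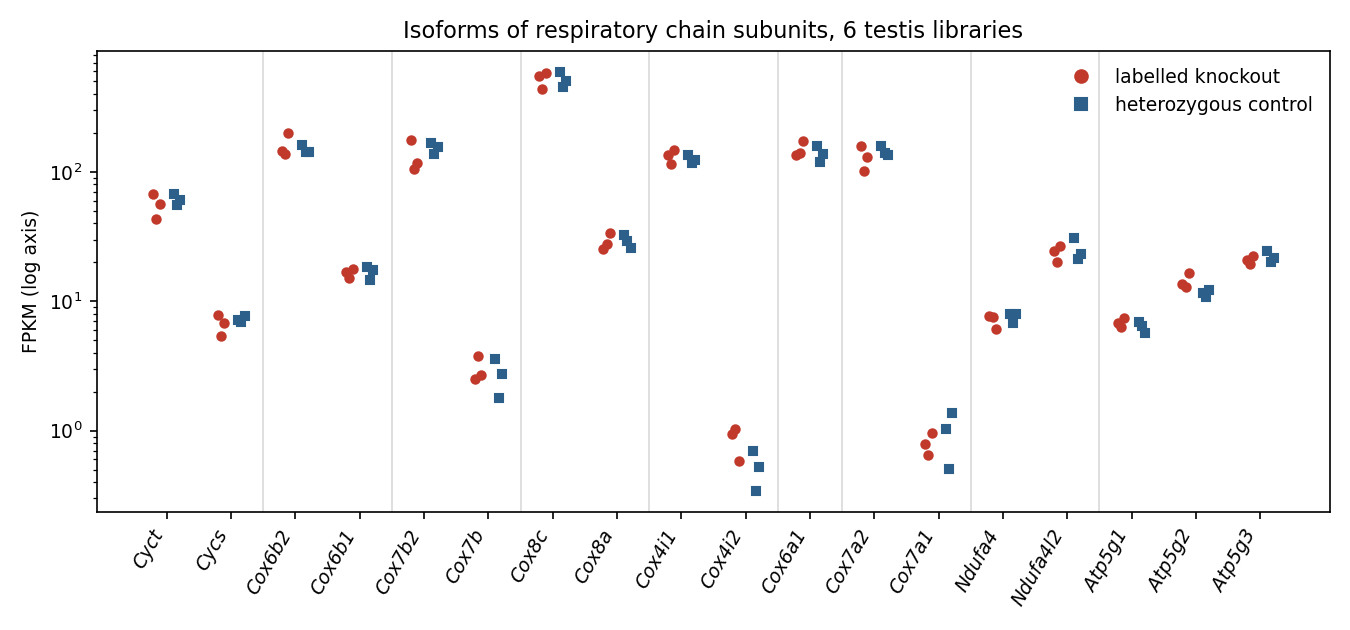
FPKM on a log axis of the testis isoforms, the general and tissue forms of the same families and the genes of ATP synthase subunit c, with 1 point per library and the knockout libraries left of the controls. Cox8c is the highest at 436 to 594 FPKM and the 2 groups overlap for Cyct, Cox6b2, Cox7b2 and Cox8c.

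The promoters of Cyct and Cycs, and of Cox7b2 and Cox7b, show how the testis and general forms of a pair differ in sequence. They are printed 5′ to 3′ as the 250 bases before the RefSeq transcript start (GRCm38.p6), with matches to the searched motifs in capitals.
Cyct (chr2:76360454-76360703, minus strand): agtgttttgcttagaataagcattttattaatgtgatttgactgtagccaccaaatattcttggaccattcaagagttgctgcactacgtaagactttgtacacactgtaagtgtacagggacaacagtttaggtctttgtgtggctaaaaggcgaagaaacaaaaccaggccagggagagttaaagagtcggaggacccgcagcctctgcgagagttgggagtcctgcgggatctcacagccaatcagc
Cycs (chr6:50566570-50566819, minus strand): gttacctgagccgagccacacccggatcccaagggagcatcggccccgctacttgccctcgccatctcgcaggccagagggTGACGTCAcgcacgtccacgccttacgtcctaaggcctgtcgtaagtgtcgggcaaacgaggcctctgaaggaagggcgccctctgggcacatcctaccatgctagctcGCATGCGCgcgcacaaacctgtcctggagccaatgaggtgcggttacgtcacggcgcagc
Cox7b2 (chr5:71548206-71548455, minus strand): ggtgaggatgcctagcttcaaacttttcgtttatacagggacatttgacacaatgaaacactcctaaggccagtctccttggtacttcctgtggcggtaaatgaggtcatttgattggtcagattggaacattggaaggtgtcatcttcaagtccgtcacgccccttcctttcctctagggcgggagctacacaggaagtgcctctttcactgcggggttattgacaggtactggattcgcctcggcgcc
Cox7b (chrX:106015450-106015699, plus strand): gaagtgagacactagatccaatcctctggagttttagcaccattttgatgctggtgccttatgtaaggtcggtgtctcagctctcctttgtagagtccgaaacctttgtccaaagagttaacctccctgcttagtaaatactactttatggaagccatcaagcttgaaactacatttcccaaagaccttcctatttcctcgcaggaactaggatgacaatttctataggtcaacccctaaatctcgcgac

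The capitals in the Cycs promoter are TGACGTCA, the full cAMP response element, from base -169 to -162, and GCATGCGC, the core of the site of NRF1, a regulator of respiratory genes, from base -60 to -53 relative to the start. The other 3 stretches held no match. Each motif was searched on both strands of the 300-base window, 250 bases before to 50 after the start, in the 78 genes of the set with a RefSeq window. The NRF1 letters were in 13 of 78 windows (16.7%), against 3.94% of 17492 protein-coding genes. The ETS letters CCGGAAGT, bound by factors such as GABPA, were in 6.41% against 5.69%, and the cAMP response element was in 6.41% against 2.54%. None of the 3 motifs was in 58 of the 78 windows (74.4%), among them the testis isoforms Cyct, Cox6b2 and Cox7b2 and the general forms Cox6b1 and Cox7b, while Cox8a held the ETS letters. Cox8c had no RefSeq window and was not searched. CG pairs per window numbered 8 for Cyct, 10 for Cox6b2 and 10 for Cox7b2, against a median of 20 over the 78 genes and 15 over protein-coding genes. Cycs had 32 and Cox7b had 5, so the general forms did not share a high count.

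The balance between each testis isoform and its partner did not differ between the groups beyond their spread. Cyct exceeded Cycs 7.97 to 8.61-fold in knockout libraries and 7.93 to 9.35-fold in controls, and Cox6b2 exceeded Cox6b1 8.74 to 11.2-fold and 8.25 to 9.77-fold. Cox8c exceeded Cox8a 15.7 to 21.7-fold in knockout libraries and 15.4 to 19.4-fold in controls. The ratio of Cox7b2 to Cox7b spread most, 28.2 to 69.7-fold in knockout libraries and 46.2 to 77.8-fold in controls, with Cox7b the low partner. The log2 ratios were taken after adding 1 FPKM to each level, so they are not the logs of these folds. The 4 differences in log2 ratio were -0.04 for Cyct, 0.10 for Cox6b2, -0.36 for Cox7b2 and 0.03 for Cox8c. Exact two-sided permutation tests gave p = 0.7, 0.6, 0.5 and 0.9 in that order, each 0.9 after adjustment over the 4, where 0.1 is the smallest p that 3 libraries against 3 allow. Dividing instead by the length of the longest coding transcript raised the Cox6b2 ratio to 14.5 to 18.4-fold in knockout libraries and 13.6 to 16.2-fold in controls. It lowered the Cox7b2 ratio to 23.3 to 57.5-fold in knockout libraries and 38.1 to 64.1-fold in controls. The Cyct ratio became 7.31 to 7.90-fold in knockout libraries and 7.28 to 8.58-fold in controls. That of Cox8c became 15.8 to 21.9-fold in knockout libraries and 15.6 to 19.5-fold in controls.

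Forms known from muscle or other tissues were minor. Cox4i1, the common first nuclear subunit of complex IV, made up 99.1% to 99.6% of the COX4 level in knockout libraries and 99.5% to 99.7% in controls, the rest being Cox4i2. Cox6a1 held at least 99.5% of COX6A in every library. Cox6a2, the heart and muscle form, was not tested and had 4, 7 and 3 reads in knockout libraries and 4, 7 and 0 in controls. Cox8b, also a muscle form, had 0, 0 and 3 reads in knockout libraries and 0, 0 and 1 in controls. Cox7a1, likewise a muscle form, stayed at 0.647 to 0.959 FPKM in knockout libraries and 0.505 to 1.36 FPKM in controls, against 102 to 157 and 134 to 160 FPKM for Cox7a2. Ndufa4l2, a paralogue of the complex IV subunit gene Ndufa4, was the exception and the higher of the pair in every library on either length. It held 72.8% to 81.4% of the pair's FPKM in knockout libraries and 74.3% to 79.5% in controls. On the length of the longest coding transcript the gap was smaller, with means of 28.6 for Ndufa4l2 and 16.7 for Ndufa4. Skeletal muscle markers summed to 0.810 to 1.51 FPKM in knockout libraries and 1.24 to 1.58 FPKM in controls.

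Across the complexes no gene was called. Of the 96 entries, 93 had a mean of at least 0.5 FPKM and were tested with 19168 genes in all. None passed an adjusted p of 0.05 in either direction by limma-trend, and the share called over all genes was 0%. Of the 93, 3 genes were higher and 1 lower at an unadjusted p under 0.05, beside 1.48% and 2.38% of all genes, or 3.87% in either direction. By limma-voom on the recovered reads, 0 of 91 genes of the set were called, 3 had an unadjusted p under 0.05, and 0.00486% of 20556 genes were called lower and 0% higher. The median log2 difference of the 93 was 0.00, with 48 higher and 45 lower, and that of all genes was -0.01. This balance turned on single libraries: the number higher was 30 without control library 2 (median -0.07), 35 without knockout library 3, 61 without control library 1 and 64 without knockout library 2 (median 0.06). In 5 genes every knockout library lay above every control and in 2 below, beside 4.15% and 4.41% of all genes, or 8.56% in either direction. The 5 were Ndufs8, Ndufs7, Uqcrc1, Atp5a1 and Atp5g2, and the 2 were Ndufa12 and Ndufaf1.

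**Figure D2:**
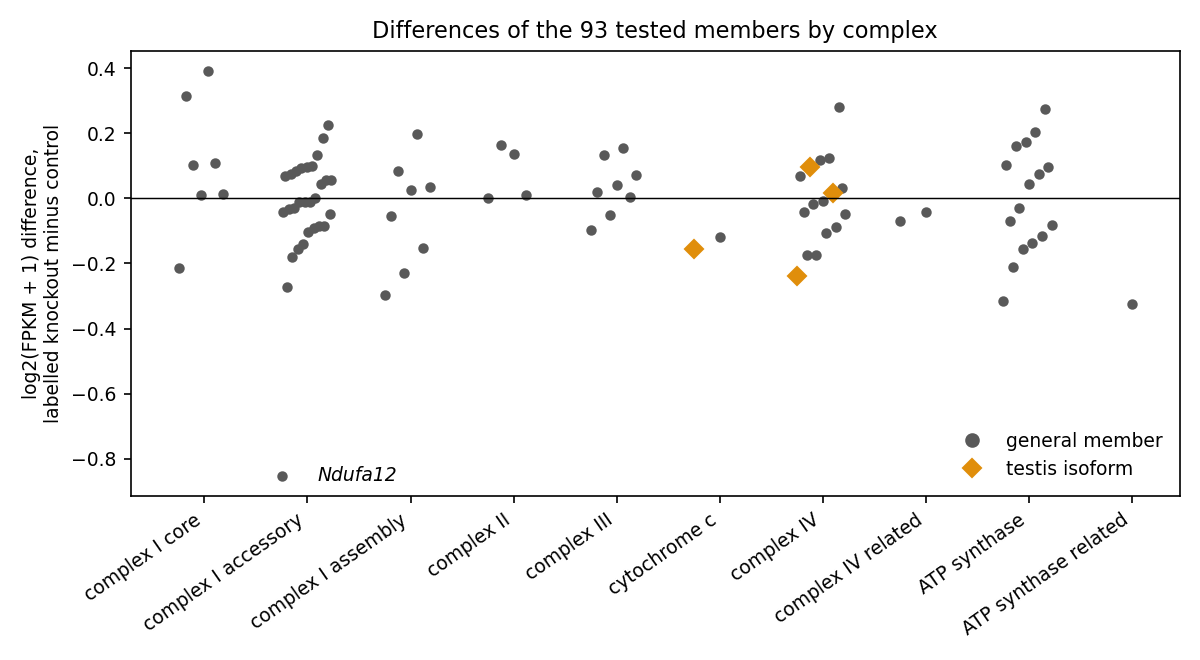
The log2 difference, knockout minus control, of each tested gene by complex, with 1 point per gene and the testis isoforms as diamonds. The medians lie between -0.14 for cytochrome c and 0.10 for the complex I core among the lists with several genes, and Ndufa12 at -0.85 is the farthest from 0.

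Complex I takes electrons from NADH. Its core subunits, which carry the flavin and the iron-sulphur clusters, had a median log2 difference of 0.10, with 6 of 7 higher. Ndufv2, which holds an iron-sulphur cluster beside the flavin, had the highest level (74.8, 52.7 and 61.6 FPKM in knockout libraries, 81.3, 64.6 and 72.6 FPKM in controls), and Ndufs1, the largest core subunit, had the lowest FPKM at 11.0 to 12.1 in knockout libraries and 11.0 to 12.3 in controls. On the length of the longest coding transcript Ndufs8 was lowest, with a mean of 23.4 against 35.1 for Ndufs1. Ndufs8, which carries iron-sulphur clusters in the arm leading to ubiquinone, had 22.3, 29.4 and 32.1 FPKM in knockout libraries and 21.9, 21.7 and 19.0 FPKM in controls. Ndufs7, which holds the last cluster before ubiquinone, had 15.0, 19.3 and 21.2 FPKM in knockout libraries and 14.8, 14.9 and 14.0 FPKM in controls. In both, knockout library 1 lay just above the highest control and the other two knockout libraries lay well above it. The log2 difference was 0.39 ± 0.14 for Ndufs8 (unadjusted p = 0.0293, adjusted p = 0.868) and 0.31 ± 0.13 for Ndufs7 (0.0453, adjusted p = 0.868), both from limma.

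Among the 29 accessory subunits of complex I, which surround the core, 13 were higher and 16 lower, with a median log2 difference of -0.01. Ndufa12, an accessory subunit of the matrix arm, had 21.9, 14.3 and 18.6 FPKM in knockout libraries and 25.6, 39.6 and 36.4 FPKM in controls. All 3 knockout values lay below all 3 controls, and the log2 difference was the largest of the 93 at -0.85 ± 0.20 (95% interval -1.33 to -0.37, unadjusted p = 0.00385, limma adjusted p = 0.868). A processed pseudogene on chromosome 5, Gm15920, holds 20.2% of the 31-base words of Ndufa12 and had 83.5, 44.0 and 46.1 FPKM in knockout libraries and 81.7, 20.8 and 40.4 FPKM in controls. The controls with the most Ndufa12, libraries 2 and 3, had the least Gm15920 of the controls. Among the knockout libraries both entries had the same order, with library 1 highest and library 2 lowest. With the reads of both entries summed, a choice made after the data were seen, the libraries had 68.0, 40.1 and 47.7 CPM, reads scaled by library size alone, in the knockout group and 73.1, 70.5 and 73.3 CPM in the controls. The 3 knockout sums lay below the 3 control sums, with a log2 difference of -0.50. This is a description, and no p-value is given because the gene was picked for its difference. Ndufaf2, whose product takes the place of NDUFA12 during assembly, had 7.36 to 11.0 FPKM in knockout libraries and 9.30 to 11.7 FPKM in controls, with 65.1% of its words shared with an overlapping gene.

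The remaining accessory subunits gave overlapping groups. Ndufa2 had the highest FPKM of them, 97.2, 82.3 and 117 FPKM in knockout libraries and 105, 75.3 and 89.9 FPKM in controls, followed by Ndufa8. On the length of the longest coding transcript Ndufa7 came first, with a mean of 128 against 94.4 for Ndufa2, and Ndufa8 was not among the first 10. Ndufb2 had the lowest on either length, 0.404 to 0.665 FPKM in knockout libraries and 0.410 to 0.509 FPKM in controls, on a table length of 5628 bases. Ndufb6, a membrane arm subunit, had a log2 difference of -0.27 ± 0.13 and shares 34.4% of its words with other genes, chiefly Smim27. The 8 assembly factors of complex I, which help build it and are not in the finished enzyme, had a median log2 difference of -0.01. Ndufaf3 was the highest at 143 to 156 FPKM in knockout libraries and 135 to 149 FPKM in controls, with Ndufaf8 the next by FPKM (Ndufaf2 on the length of the longest coding transcript) and Ndufaf6 the lowest on either length at 0.934 to 1.08 and 0.837 to 1.18 FPKM. Ndufaf1, an early assembly factor, had 7.50, 7.18 and 7.82 FPKM in knockout libraries and 8.06, 9.03 and 8.29 FPKM in controls, with no overlap and a log2 difference of -0.15 ± 0.09. Ndufaf5, a factor that modifies NDUFS7, had a log2 difference of -0.30 ± 0.14 with overlapping groups.

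**Figure D3:**
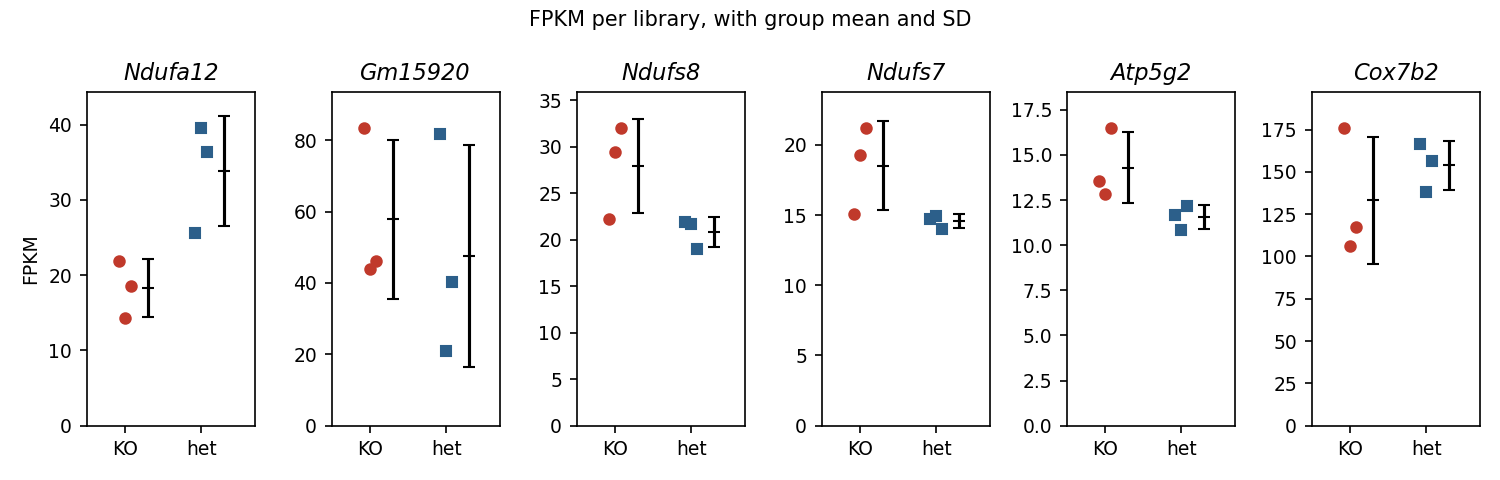
FPKM per library of Ndufa12, its pseudogene Gm15920, Ndufs8, Ndufs7, Atp5g2 and Cox7b2, with the knockout libraries (KO) left of the heterozygous controls (het) and bars for the group mean and SD (n = 3 each). Ndufa12 lies below the controls in all 3 knockout libraries, Ndufs8, Ndufs7 and Atp5g2 lie above, and the groups overlap for Gm15920 and Cox7b2.

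Complex II, which links the citric acid cycle to the chain, had 4 of 4 subunits with a positive log2 difference, with a median of 0.07. Sdha, the flavin subunit, was at 39.2 to 41.7 FPKM in knockout libraries and 39.3 to 41.3 FPKM in controls, with Sdhd next and Sdhc lowest. Sdha had the highest mean FPKM, but on the length of the longest coding transcript Sdhb did, with 68.0 against 57.6 for Sdha. Complex III, which passes electrons to cytochrome c, had a median of 0.03 with 6 of 8 higher. Uqcrq, a small subunit, had the highest FPKM at 103, 76.1 and 101 FPKM in knockout libraries and 103, 78.3 and 90.3 FPKM in controls, and Uqcr11 the lowest. On the length of the longest coding transcript Uqcrc1 came first, with a mean of 198 against 111 for Uqcrq. Uqcrc1, a core subunit, had 79.5, 82.0 and 86.7 FPKM in knockout libraries and 79.4, 74.4 and 72.2 FPKM in controls. These groups were separated by a narrow margin, with a log2 difference of 0.13 ± 0.09 (adjusted p = 0.868, limma). The 16 tested genes of complex IV, which hands electrons to oxygen, had a median of -0.01 with 7 higher and 9 lower. Cox4i2 had a log2 difference of 0.28 ± 0.15 at under 1.1 FPKM in every library.

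ATP synthase had a median log2 difference of 0.01 over 16 tested genes, 8 higher and 8 lower. Atp5b, a catalytic subunit, was the highest at 133 to 136 FPKM in knockout libraries and 127 to 147 FPKM in controls. Atp5a1, the partner of the catalytic subunit in the head of the enzyme, had 102.2, 121.9 and 113.7 FPKM in knockout libraries and 100.1, 96.9 and 101.6 FPKM in controls. The lowest knockout value lay just above the highest control, and the log2 difference was 0.17 ± 0.10. Atp5g2, one of 3 genes for the ring subunit c, had 13.5, 12.8 and 16.5 FPKM in knockout libraries and 11.7, 10.9 and 12.2 FPKM in controls. The groups did not overlap, and the log2 difference was 0.28 ± 0.11 (unadjusted p = 0.0449, limma adjusted p = 0.868). Of the 3 genes together, Atp5g2 gave 33.0%, 33.3% and 35.6% in knockout libraries and 27.1%, 29.1% and 30.7% in controls, with Atp5g3 the most abundant in every library and Atp5g1 the least. Atp5g2 shares 40.2% of its words with other genes, chiefly Gm10175, which was under 1 FPKM in all 6 libraries. Atp5s, a factor related to the enzyme, had a log2 difference of -0.33 ± 0.16 with overlapping groups. The second Atp5o entry was listed at 0 throughout, and its exon bases are all covered by other genes. Of the 96 entries, 14 share at least 20% of their words with another gene and 24 share none.

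The order of the libraries crossed the groups. After centring each gene on its mean, the median over the 93 genes was 0.04, -0.16 and 0.09 in knockout libraries 1, 2 and 3 and 0.15, -0.12 and -0.00 in control libraries 1, 2 and 3, on the log2 scale. Knockout library 3 was the highest of the 6 in 33 genes and control library 1 in 39, that is 35.5% and 41.9% of the set, against 19.6% and 19.5% of all tested genes. Knockout library 2 was the lowest in 46 genes and control library 2 in 30, 49.5% and 32.3% of the set, against 20.9% and 13.3% of all tested genes. A high and a low library therefore stood in each group. The testis isoforms had medians of 0.15, -0.33 and 0.07 in knockout libraries and 0.21, -0.09 and 0.02 in controls. The part of library quality in this order was not tested.

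**Figure D4:**
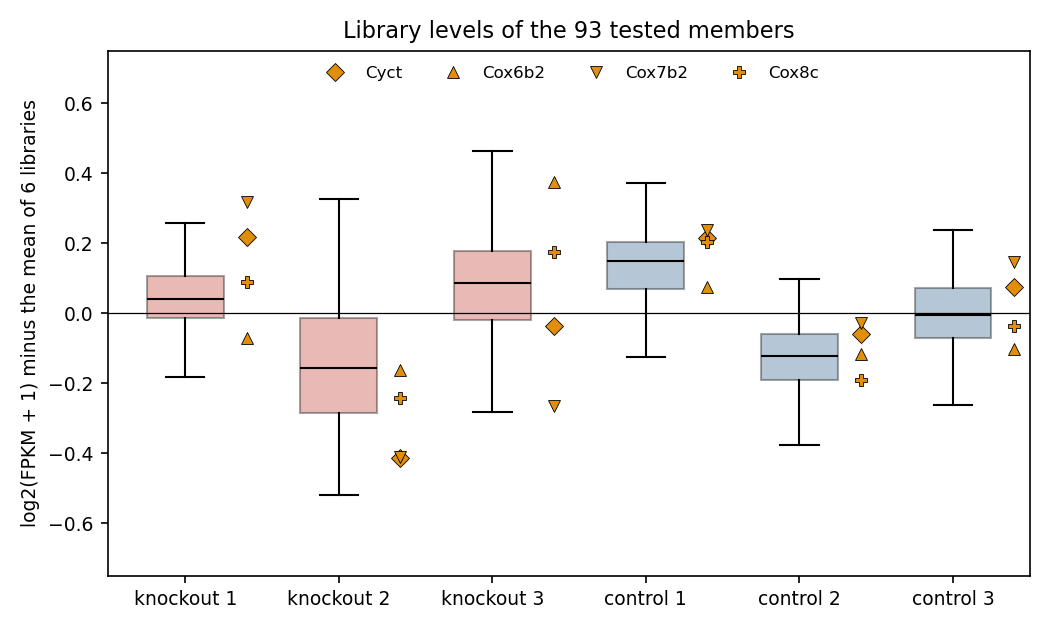
Level of the 93 tested genes in each library, as log2(FPKM + 1) minus the mean of the 6 libraries, with the knockout libraries left of the controls. Boxes give the median and quartiles, whiskers reach the farthest gene within 1.5 box heights, genes beyond them are not drawn, and the marks beside each box are the testis isoforms. Knockout library 2 and control library 2 are low, at medians of -0.16 and -0.12 over all genes of the set.

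The log2 difference between the groups was larger in genes of higher GC content, in the set as in all genes. Spearman's rho between the log2 difference and the GC content of the transcript was 0.45 over the 93 genes (Pearson's r 0.40) and 0.43 over 18055 tested genes (r 0.35). These are correlations across genes, which share the same 6 libraries and are not independent replicates. Genes of the set below 45% GC had a median log2 difference of -0.07 and those of at least 55% had 0.09, beside -0.10 and 0.10 for all tested genes. Between these bins the centred median of all tested genes rose in knockout libraries 2 (-0.09 to 0.10) and 3 (-0.11 to 0.13). It fell in knockout library 1 (0.06 to -0.07), as in control libraries 1 (0.04 to -0.03), 2 (0.05 to -0.06) and 3 (0.06 to -0.07). The medians of the set moved in the same direction in each library. The part of base composition in the differences of single genes was not tested.

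**Figure D5:**
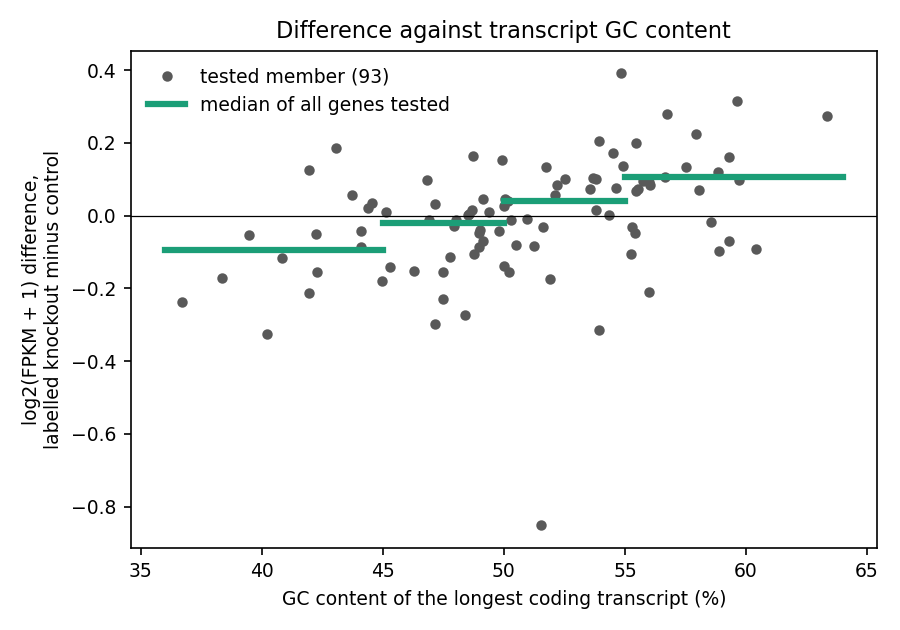
Log2 difference, knockout minus control, against transcript GC content in percent with 1 point per tested gene of the set and bars for the median of all tested genes in each GC bin. The bars move upward with GC content, from -0.10 below 45% to 0.10 at 55% and above. They show group differences, and knockout library 1 by itself moved downward with GC content, as the controls did.

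Genes outside the set that serve the same enzymes were likewise not called. Of the 13 subunits encoded in mitochondrial DNA, 12 were tested, with 3 higher, 9 lower and a median log2 difference of -0.09. The 2 of smallest p were mt-Atp6, an ATP synthase subunit, at -0.25 ± 0.13 and mt-Nd6, a complex I subunit, at -0.22 ± 0.15. Of 43 assembly factors and related genes, 40 were tested, with 23 higher, 17 lower and a median of 0.05. Coa6, a copper-handling factor for complex IV, had 8.35, 5.25 and 6.38 FPKM in knockout libraries and 8.46, 9.11 and 8.64 FPKM in controls. These groups did not overlap, and the log2 difference was -0.37 ± 0.15 (limma adjusted p = 0.868). Cyc1, a cytochrome of complex III, had 19.8, 25.4 and 28.0 FPKM in knockout libraries and 20.6, 18.7 and 19.9 FPKM in controls, with overlap and a difference of 0.28 ± 0.13. The 13 regulators of mitochondrial biogenesis had 7 higher, 6 lower and a median of 0.08, among them Gabpa at -0.22 ± 0.12 and Pprc1 at 0.22 ± 0.12.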

How the data were processed

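Testis RNA was prepared with Trizol and a SMARTER mRNA kit, per the labels' protocols, and the genome builds listed are GRCm38 and mm10, per the submitters' processing notes. No aligner, counter or strand setting is given in the sources used here, so overlapping genes on opposite strands may share reads. The values are FPKM per gene as deposited by the authors, fragments scaled by the table's gene length and by library size. Each value is a whole number of reads divided by length and library size (100% whole within 0.001), and the recovered reads gave the depths. Tests used limma 3.58.1 (limma-trend) in R 4.3.3 on log2(FPKM + 1), which understates the change of low genes, for the 19168 genes that averaged 0.5 FPKM or more, with Benjamini-Hochberg adjustment over all of them and a threshold of 0.05. The fit was run on 5 simulated sets with 200 changed genes each and noise drawn separately for each gene. These sets lacked the shifts between libraries seen here and do not measure the power of the fit in these data. Isoform ratios were tested by exact permutation over libraries. Alternatives changed the pseudocount, the minimum, the scaling, the trend, sample weights, the test on reads, the replicate block and the libraries. Shared sequence was counted as 31-base words in the reference transcripts, and promoters came from RefSeq. Named genes were the testis isoforms and partners, tissue isoforms, subunit c genes, the 2 highest and the lowest in FPKM of each complex, the 5 of smallest unadjusted p in each direction, untested entries, the 2 of smallest p in each outside list, and Tmc7, of which 1 gene is not reported here. Ndufa7, Ndufaf2, Sdhb, Tnp1, Prm1, Lcn5, Gm10053, Gm15920, Gm10175 and Smim27 were added after their values were seen. The members and lists were chosen with earlier results of these data known.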

Additional observations from a re-analysis of the deposited data

How the results depend on the processing

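No gene of the set was called under any of the 16 alternatives fitted across all genes. Over all genes 1 was called by limma-voom on recovered reads and 0 otherwise. Small differences changed sign. The log2 difference of Cox6b1 was 0.0079 with quantile normalization and 0.041 with array weights, that of Cox8a 0.018 and 0.024 in the same order, and the log2 ratio of Cyct to Cycs 0.0051 with quantile normalization. Leaving out 1 library at a time gave log2 differences of -0.30 to 0.014 for Cyct, -0.068 to 0.20 for Cox6b2, -0.076 to 0.14 for Cox8c, -0.22 to 0.0057 for Cycs, -0.10 to 0.061 for Cox6b1, -0.069 to 0.30 for Cox7b and -0.13 to 0.071 for Cox8a. The log2 ratios ran from -0.078 to 0.037 for Cyct to Cycs, -0.0082 to 0.17 for Cox6b2 to Cox6b1 and -0.096 to 0.13 for Cox8c to Cox8a. The cause was not tested. Cox7b2 stayed lower throughout (-0.46 to -0.09). Without knockout library 1, 13 genes of the set had an unadjusted p under 0.05, beside 18.2% of all genes, and the smallest adjusted p of the set was 0.147 by limma. That number was 2 without knockout library 2, 3 without knockout library 3, and 4, 2 and 1 without control libraries 1, 2 and 3 in turn.

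Same-numbered knockout and control libraries correlated in their deviations from the group means at 0.29, 0.04 and 0.20, and differently numbered ones at -0.32 to 0.17. The values 0.29 and 0.20 thus lay above every differently numbered one. The limma-trend test did not take the replicate numbers as pairs, and these correlations do not settle whether they are. With the number as a replicate block 0 genes of the set were called, and 9 had an unadjusted p under 0.05, beside 7.36% of all genes. With 3 libraries a group, genes whose own 95% interval left out 0, such as Ndufa12, were still not called after adjustment over all genes.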
